A study of Danio rerio with 7 samples.

Results

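Glycolysis and lactate handling were followed through 28 gene rows in sorted cells of the injured zebrafish heart. The genes were taken by name from glucose uptake to lactate transport, and a row was included when its symbol matched a listed name in any letter case, or the name without its final a or b. Of 35 listed names, 30 matched, which gave 28 rows under 21 symbols out of 16394 gene rows in all. The names hk2, pgk1, pkma, pkmb and ldha matched no row and were not analysed here. A set of 7 symbols (SLC2A1, PFKM, PFKP, ALDOA, TPI1, ENO1 and SLC16A3) stands on a pair of rows each. The symbol does not say which zebrafish copy such a row is, so these rows are given with their gene identifier.

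The cells came from ventricles of adult fish 7 days after cryoinjury, a local freezing of the heart wall that zebrafish can repair. All fish carried Tg(nppa:mCitrine), a reporter driven by the promoter of nppa, and live cells in which it shone brightly went into plates of 384 wells, 1 cell to a well. The wild-type group was hmga1a+/+ (3 plates) and the mutant group hmga1a-/- (4 plates), with 12 hearts per genotype. The gene hmga1a encodes a chromatin protein, so the comparison asks how its loss changes the cells that turn on the reporter. The design holds no uninjured hearts and no reporter-negative cells. The series text gives the sorted colour as mCitrine and the sample protocol gives mCherry, and it states 768 cells per genotype where the tables hold 1152 wild-type and 1536 mutant wells. No label ties a plate to particular animals, so errors and p-values reflect how far plates differ, which need not be how far animals differ.

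Glycolysis turns glucose into pyruvate in the cytosol and yields ATP without oxygen. Hexokinase and phosphofructokinase are its main points of control, while the enzymes from aldolase to enolase work near equilibrium and are abundant in muscle. Lactate dehydrogenase converts pyruvate and lactate into each other, and monocarboxylate transporters carry lactate across the membrane. The adult heart normally draws most of its ATP from fatty acids. The gene nppa encodes a natriuretic peptide and in the zebrafish heart marks cardiomyocytes that border an injury.

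Wells were used from 1000 transcripts upward, leaving aside spike-ins and mitochondrially encoded genes, and these were 499 wild-type and 534 mutant wells. Kept wells held 246040 to 725234 transcripts per wild-type plate and 256638 to 515801 per mutant plate. Wild-type plate 1 kept 99 wells, beside 202 and 198 in wild-type plates 2 and 3. Its median kept well held 1650 transcripts, the lowest of the 7 plates, beside 2672 and 2506 in those plates. A level below is the number of transcripts per 10000 such transcripts in the kept wells of a plate. The transcript of hmga1a itself stood at 1.05 to 1.23 per 10000 in the wild-type plates and at 0.0969 to 0.546 in the mutant plates. The 16 rows of cardiomyocyte markers summed to 1516 to 1854 per 10000 in wild-type plates and to 1128 to 1558 in mutant plates. The 7 rows of leukocyte markers summed to 0.854 to 1.60 in wild-type plates. In mutant plates they summed to 17.0 in plate 1 and to at most 0.137 in the others, with all 7 rows at 0 in plate 2. The 9 rows of fibroblast and epicardial markers summed to 5.93, 0.827 and 3.69 in wild-type plates 1 to 3. Their sums in mutant plates were 0.756 to 3.20. Endothelial markers (5 rows of 9 listed names), erythrocyte markers (1 row of 6) and thrombocyte markers (4 rows of 4) each summed to at most 0.468 in any plate. The erythrocyte row was SLC4A1, and no listed globin name matched a row. Wells called free of other cell types' markers below are free of these matched rows only. Plates were sequenced in 2 runs according to the flow cell in the file names: run 1 held wild-type plate 1 and mutant plates 1 and 2, and run 2 held the other 4.

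A few rows, most of them of enzymes from aldolase to enolase, supplied nearly all of the summed level of the matched rows. The sum holds no hk2, pgk1, pkma, pkmb or ldha, so shares of it are shares of the matched rows only. GAPDH, the dehydrogenase that makes the NADH of the pathway, stood at 212 ± 32.9 per 10000 in wild-type plates (SD, n = 3). It alone gave 40.7% ± 3.15 of the sum. Next came ALDOA ENSDARG00000011665, an aldolase that splits fructose bisphosphate, at 138 ± 25.6. ENO3, the muscle form of enolase in mammals, stood at 45.8 ± 17.4, and LDHB, the heart form of lactate dehydrogenase in mammals, at 23.4 ± 6.37. ENO3 was above LDHB in each of the 3 wild-type plates, whereas LDHB and the second ALDOA row (23.2 ± 2.24) changed order between plates. CEL-seq2 counts the 3′ end of each transcript, so no division by length was made, although the capture of different 3′ ends may vary.

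The rows matched for the first steps of the pathway and for the lactate transporters were far lower. Hexokinase was represented by HK1 alone, since hk2 matched no row. HK1 stood at 1.26 ± 0.110 per 10000 in wild-type plates, and the 5 phosphofructokinase rows summed to 4.79 ± 1.82. The 2 rows of SLC2A1, the main insulin-independent glucose transporter of mammals, summed to 0.480 ± 0.571, and this sum came mostly from plate 1. Monocarboxylate transporters summed to 0.810 ± 0.354. The sparsest rows were ENO1 ENSDARG00000013750 with 2 transcripts in all kept wells and SLC16A3 ENSDARG00000028583 with 1. For some symbols on a pair of rows, one row held nearly all transcripts: TPI1 ENSDARG00000040988 had 7166 and its partner 75, and PFKM ENSDARG00000060797 had 865 and its partner 10. Other pairs were less uneven: PFKP had 693 and 302, ALDOA 41381 and 7531, and SLC2A1 129 and 21. Such copies may share reads, because the sources used here do not give how reads that map to several places were handled.

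**Figure D1:**
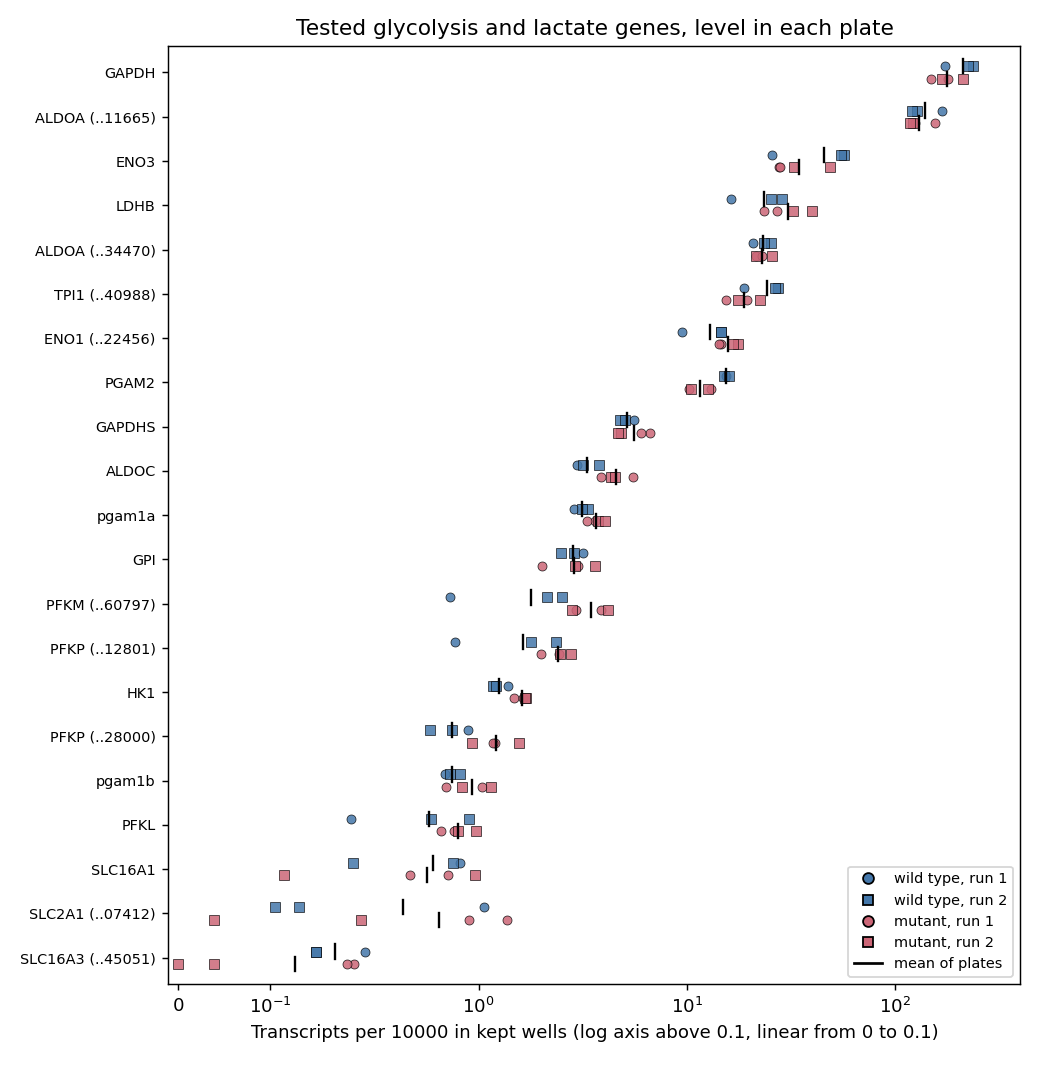
Level of each of the 21 tested rows in each plate, in transcripts per 10000 on an axis that is logarithmic above 0.1; points are plates (circles run 1, squares run 2) and black bars are the means of 3 wild-type and 4 mutant plates. GAPDH and ALDOA ENSDARG00000011665 stand above 100 and the transporters near or below 1; the plates of PFKM, ALDOC, HK1 and PFKP ENSDARG00000028000 do not overlap between the genotypes, nor do those of PGAM2.

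The summed level differed little between the genotypes. It was 470, 554 and 529 per 10000 in wild-type plates 1 to 3 and 418, 486, 526 and 448 in mutant plates 1 to 4. The ranges overlap, and the means were 518 ± 43.0 (SD, n = 3) and 470 ± 46.7 (SD, n = 4). The difference of -48.1 is close to the SD within either group. On the log2 scale it was -0.06 within run 1 and -0.16 within run 2. Without GAPDH the sums were 306 ± 10.8 and 293 ± 21.3, also overlapping. Counted cell by cell after thinning each well to 1000 UMIs, the median well held 530, 560 and 540 member transcripts per 10000 in the wild-type plates and 460, 550, 490 and 470 in the mutant plates. The wells of each plate spread much more widely than the plates: in wild-type plate 2 the lowest stood at 30 and the highest at 1030.

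**Figure D2:**
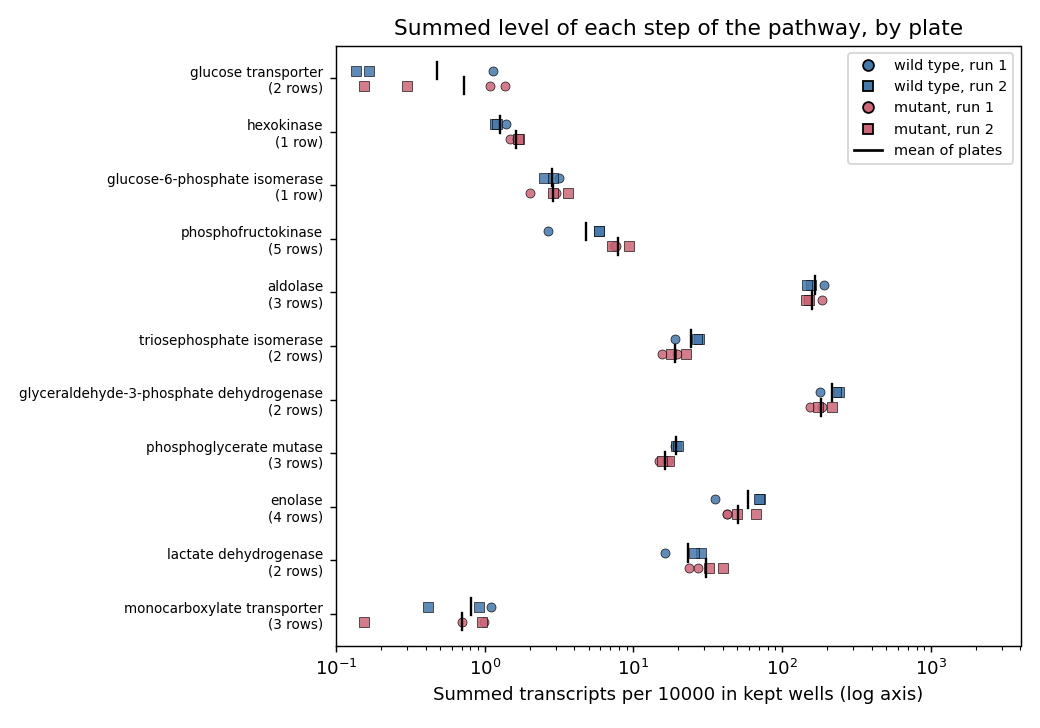
Summed transcripts per 10000 for each step of the pathway with a matched row, by plate, on a logarithmic axis. Points are plates (circles run 1, squares run 2) and black bars are means of 3 wild-type and 4 mutant plates. Phosphoglycerate kinase and pyruvate kinase had no matched row and are not shown. Hexokinase and phosphofructokinase sums are higher in every mutant plate than in any wild-type plate. The phosphoglycerate mutase sum is lower in every mutant plate, and the other 8 steps shown overlap.

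By genotype no member was called. The tested rows of hexokinase and phosphofructokinase had positive fold changes, while the most abundant rows went in both directions. In edgeR's quasi-likelihood test with sequencing run as covariate and Benjamini-Hochberg adjustment, 21 of the 28 rows could be tested and 0 had an adjusted p under 0.05. Among all 2798 genes tested, 14 were called, a share of 0.5%, 7 in each direction (0.25% each). At an unadjusted p under 0.05 there were 6 members higher in the mutant, against 7.58% of all genes, and 1 lower, against 5.18%. Of the 21, 14 had a positive fold change and 7 a negative one, with a median log2 fold change of 0.19 beside 0.03 over all genes tested. With no filter on low counts all 28 rows were tested and the split was 14 to 14, beside 45.4% positive among all genes in that fit. The median of the members was then 0.03 beside -0.14 over all genes. DESeq2 called 1 member, PFKM ENSDARG00000060797, beside 1.68% of all genes. The edgeR fit with no filter called the same row, beside 0.515%, and the edgeR fit on wells thinned to 1000 UMIs called it and LDHB, beside 4.92%.

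Phosphofructokinase commits sugar to glycolysis, and its summed level had the largest ratio between the groups among the steps with a matched row. The 5 rows together stood at 2.68, 5.83 and 5.85 per 10000 in wild-type plates 1 to 3, and at 7.41, 7.68, 7.19 and 9.32 in mutant plates 1 to 4. Every mutant plate was above every wild-type plate, and the ratio of the means was 1.65. The size of the gap rests on wild-type plate 1, the lowest: the log2 difference was 1.46 within run 1, where this is the sole wild-type plate, and 0.48 within run 2.

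PFKM ENSDARG00000060797, named for the muscle form in mammals, had the largest positive fold change among the tested members. It was at 0.732, 2.12 and 2.53 per 10000 in the wild-type plates and at 2.95, 3.86, 2.81 and 4.19 in the mutant plates. The groups do not overlap, and wild-type plate 1 rests on 18 transcripts. Its log2 fold change was 1.11 ± 0.313 (SE) (edgeR adjusted p = 0.167). Without wild-type plate 1 the log2 fold change was 0.60 (edgeR adjusted p = 0.556), below the 0.90 of PFKP ENSDARG00000028000 in the same fit, so its rank rests on that plate. After thinning to 1000 UMIs, 10.4% ± 4.23 of wild-type wells and 22.5% ± 2.24 of mutant wells held a PFKM transcript, without overlap. The share of wells is drawn from the same transcripts as the level and is not separate support. The unthinned shares were 22.4% and 40.8%. Among the other members at an unadjusted p under 0.05, the thinned shares of ALDOC and PFKP ENSDARG00000028000 also did not overlap. Those of LDHB, ENO1 ENSDARG00000022456, PGAM2 and PFKP ENSDARG00000012801 overlapped. No rate over all genes was taken for these shares.

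PFKP, named for the platelet form in mammals, had a pair of rows. PFKP ENSDARG00000012801 stood at 0.772, 2.34 and 1.79 per 10000 in wild-type plates and at 2.44, 1.99, 2.46 and 2.77 in mutant plates. These groups overlap, through mutant plate 2, and the log2 fold change was 0.75 ± 0.276 (edgeR adjusted p = 0.280). Leaving out wild-type plate 1 brought it to 0.36. PFKP ENSDARG00000028000 was at 0.894, 0.745 and 0.586 in wild-type plates and at 1.20, 1.17, 0.931 and 1.56 in mutant plates. Here the groups do not overlap, although the 2 nearest plates are close, and the log2 fold change was 0.75 ± 0.274 (edgeR adjusted p = 0.276). Leaving out wild-type plate 1 brought this row to 0.90, so the pair had equal fold changes in the fit on all plates and not in that one. The log2 differences of levels within run 1 and run 2 were 1.40 and 0.34 for the first row and 0.37 and 0.78 for the second. PFKL, named for the liver form, had a log2 fold change of 0.64 ± 0.348 (edgeR adjusted p = 0.482).

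Hexokinase, which traps glucose in the cell as its phosphate, was measured through HK1 alone. HK1 was at 1.38, 1.17 and 1.22 per 10000 in wild-type plates and at 1.47, 1.64, 1.69 and 1.67 in mutant plates. Every mutant plate was above every wild-type plate by a small margin, and the log2 fold change of 0.41 ± 0.204 did not pass the test (edgeR adjusted p = 0.452), nor was its unadjusted p under 0.05. GPI, the isomerase of the next step, had nearly equal means of 2.85 ± 0.340 and 2.88 ± 0.654. SLC2A1 ENSDARG00000007412 followed the sequencing run and not the genotype: it was at 0.898 to 1.37 in the 3 plates of run 1 and at 0.0388 to 0.274 in the 4 plates of run 2.

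The enzymes that split and oxidise the sugar were the most abundant members and showed no called difference. GAPDH was at 174, 236 and 224 per 10000 in wild-type plates and at 148, 179, 211 and 168 in mutant plates, which overlap. Its log2 fold change was -0.17 ± 0.135 (edgeR adjusted p = 0.657). ALDOA ENSDARG00000011665 was at 168, 127 and 121 in wild-type plates and at 124, 156, 122 and 118 in mutant plates, with 1 high plate in each group (log2 fold change -0.09 ± 0.121, edgeR adjusted p = 0.800). The other ALDOA row, ENSDARG00000034470, was nearly level across plates: 20.8, 25.3 and 23.4 against 21.5, 22.9, 25.5 and 21.6. GAPDHS, a second gene of the dehydrogenase, had means of 5.14 ± 0.399 and 5.55 ± 0.940 (log2 fold change 0.09 ± 0.150). Triosephosphate isomerase, which makes both products of the split sugar usable, was lower on average in the mutant. TPI1 ENSDARG00000040988 was at 18.8, 27.3 and 26.4 in wild-type plates and at 15.3, 19.4, 22.5 and 17.7 in mutant plates. Its groups overlap through wild-type plate 1 (log2 fold change -0.26 ± 0.143, edgeR adjusted p = 0.482).

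ALDOC, an aldolase known from the mammalian brain, was the aldolase row with a positive fold change at an unadjusted p under 0.05. It was at 2.97, 3.79 and 3.17 per 10000 in wild-type plates and at 3.87, 5.54, 4.30 and 4.49 in mutant plates, without overlap. The log2 fold change was 0.49 ± 0.177 (edgeR adjusted p = 0.269). ALDOC made up 2.04% ± 0.452 of all aldolase transcripts in wild-type plates against 2.88% ± 0.233 in mutant plates, without overlap. This share and the share of wells rest on the same ALDOC transcripts as the level and are not separate support. After thinning, 18.0% ± 3.07 of wild-type and 29.96% ± 3.92 of mutant wells held an ALDOC transcript (35.8% and 50.4% unthinned).

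Phosphoglycerate mutase moves the phosphate group before enolase acts, and its rows went in opposite directions. PGAM2, the muscle form in mammals, was the member with a negative fold change at an unadjusted p under 0.05. It stood at 15.4, 15.1 and 16.02 per 10000 in wild-type plates and at 10.3, 13.0, 12.7 and 10.4 in mutant plates. All 4 mutant plates were below the wild-type plates, with a log2 fold change of -0.38 ± 0.132 (edgeR adjusted p = 0.255). The log2 difference was -0.41 within run 1 and -0.43 within run 2. The rows pgam1a and pgam1b, named for the widely expressed form, had log2 fold changes of 0.30 ± 0.161 and 0.39 ± 0.275 (edgeR adjusted p = 0.482 and 0.588). Their part of all mutase transcripts was 19.96% ± 1.22 in wild-type plates against 28.6% ± 4.35 in mutant plates, and the plates do not overlap.

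Enolase, the next enzyme, was measured through ENO3 and ENO1, the latter named for the widely expressed form in mammals. ENO3 was at 25.7, 56.7 and 55.0 per 10000 in wild-type plates and at 27.8, 28.1, 48.8 and 32.8 in mutant plates. Wild-type plate 1 was the lowest of all 7, and the log2 fold change was -0.19 ± 0.178 (edgeR adjusted p = 0.699). The log2 difference of levels was 0.12 within run 1 and -0.48 within run 2, so the direction differed between the runs. ENO1 ENSDARG00000022456 was at 9.52, 14.5 and 14.6 in wild-type plates and at 14.7, 14.2, 17.6 and 16.7 in mutant plates. Its log2 fold change was 0.42 ± 0.134 (edgeR adjusted p = 0.218), and 0.26 without wild-type plate 1. ENO1 made up 22.8% ± 3.70 of enolase transcripts in wild-type plates against 32.0% ± 3.75 in mutant plates, with overlap through wild-type plate 1 and mutant plate 3.

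At the lactate step, LDHB had the lowest unadjusted p of all members. It stood at 16.2, 28.5 and 25.3 per 10000 in wild-type plates and at 27.0, 23.6, 39.8 and 32.3 in mutant plates. The groups overlap over both runs, but within each run every mutant plate was above the wild-type plates of that run. The log2 differences were 0.63 within run 1 and 0.42 within run 2. The fitted log2 fold change was 0.55 ± 0.147 (edgeR adjusted p = 0.151). In the 431 wild-type and 423 mutant wells with no marker transcript of another cell type it was 0.56. There LDHB passed the test (edgeR adjusted p = 0.0188, in a fit that called 3.93% of its genes), as it did in 2 of 20 alternatives. With no run covariate its log2 fold change was 0.42 (edgeR adjusted p = 0.690). Without wild-type plate 1 it was 0.45 (edgeR adjusted p = 0.581). The second lactate dehydrogenase row, ldhbb, had 18 transcripts in all kept wells and was not tested.

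The lactate transporters were sparse. SLC16A1, the transporter MCT1 of mammals, was at 0.813, 0.248 and 0.752 per 10000 in wild-type plates and at 0.713, 0.468, 0.116 and 0.960 in mutant plates. The plates overlap widely, and the log2 fold change of -0.10 ± 0.599 leaves room for a large change in either direction. SLC16A3 ENSDARG00000045051, the transporter MCT4 of mammals, had 49 transcripts in all and a log2 fold change of -1.38 ± 0.762 (edgeR adjusted p = 0.483). The 7 rows that could not be tested held between 1 and 75 transcripts each: one row each of SLC2A1 (ENSDARG00000001437), PFKM (ENSDARG00000014179), TPI1 (ENSDARG00000025012), ENO1 (ENSDARG00000013750) and SLC16A3 (ENSDARG00000028583), and the rows eno2 and ldhbb.

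**Figure D3:**
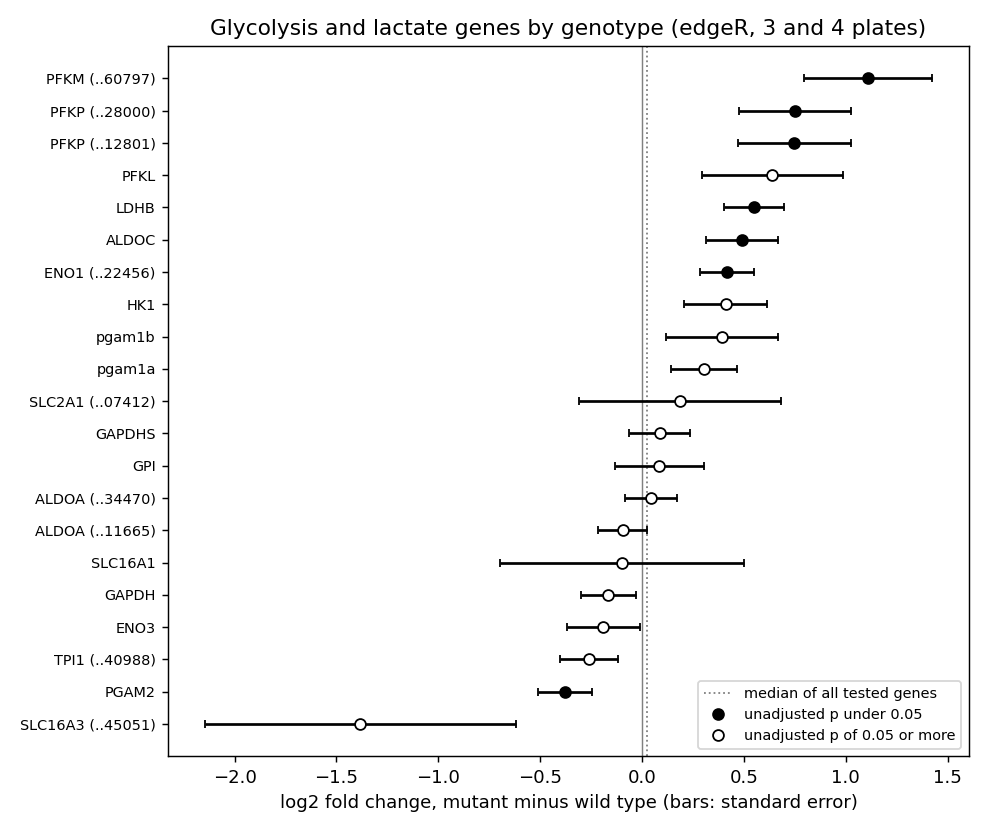
Fitted log2 fold change of the 21 tested members, mutant minus wild type, with the standard error as bars; filled points had an unadjusted edgeR p under 0.05 and the dotted line is the median of all tested genes. Phosphofructokinase rows, LDHB, ALDOC and ENO1 lie to the right and PGAM2 to the left, and no member had an adjusted p under 0.05.

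Of the 8 most abundant rows 5 had a negative fold change, and of the other 13 tested rows 11 had a positive one, beside 51.9% positive among all genes tested. Whether abundant and sparse members differ in direction was not tested. The 8 most abundant rows together made up 95.6% ± 0.207 of the summed level in wild-type plates against 93.8% ± 0.924 in mutant plates, without overlap. Groups of plates that do not overlap were found for 4 members on the higher side (ALDOC, PFKM, HK1 and PFKP ENSDARG00000028000), beside 5.22% of all tested genes. On the lower side this held for PGAM2, beside 5%. Shares and step sums reuse the same transcripts, and no rate over all genes was taken for them. The shares of PFKM and GAPDHS within their steps overlapped between the groups, as did that of ALDOA ENSDARG00000034470 in both ALDOA rows. The count of 6 members higher at an unadjusted p under 0.05 was 3 without wild-type plate 1, beside 4.41% of all genes in that fit. Without mutant plate 1, the plate with the leukocyte transcripts, 6 were again higher and 1 lower, beside 7.46% and 4.92% of all genes in that fit. The count of higher members was 3 with no run covariate (5.79% of all genes), 2 in run 2 alone (5.18%) and 3 with no filter on low counts (1.93%), where 3 were also lower (3.07%). Mutant plates had lower cardiomyocyte marker sums, and the part of this in the differences above was not tested. An alternative kept the wells rich in those markers, which does not match the marker sums between the groups. In it PFKM ENSDARG00000060797 had a log2 fold change of 0.89, LDHB of 0.52 and PGAM2 of -0.44. ALDOC had 0.36, ENO1 ENSDARG00000022456 had 0.39, PFKP ENSDARG00000012801 had 0.63 and PFKP ENSDARG00000028000 had 1.05. That fit called 0 members, beside 2.95% of its genes.

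Within wild-type hearts the question was whether cells with nppa transcripts hold more of the pathway. All sorted cells had reporter signal, yet an nppa transcript was found in 36.6% ± 3.77 of the kept wild-type wells (187 of 499) and in 48.8% ± 3.52 of the mutant wells (261 of 534). The wells with nppa were deeper: the median well of a wild-type plate held 3196 ± 863 transcripts with nppa and 1981 ± 461 without. After thinning to 1000 UMIs the shares of wells with nppa were 18.6% ± 3.59 and 28.5% ± 2.14. The comparison was therefore also made in wells thinned to 1000 UMIs and in wells with at least 2000 transcripts, with values given below.

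The summed level of the members overlapped between the classes, and it was higher with nppa in 2 of 3 wild-type and 3 of 4 mutant plates. In wild-type plate 1 it was 525 per 10000 in wells with nppa and 436 in wells without. Plate 2 had 552 and 556, and plate 3 had 544 and 516. The mean difference of 37.5 ± 46.9 (SD, n = 3) is smaller than its spread, and most of it comes from plate 1: without that plate it was 12.0. It was 13.7 in thinned wells and 48.6 in wells with at least 2000 transcripts. In the wells rich in cardiomyocyte markers it was -10.3. The mutant plates gave 440 and 375, 485 and 486, 545 and 499, and 458 and 436, a mean difference of 32.8 ± 28.6 (SD, n = 4). By number of nppa transcripts, wild-type plate 1 had 436 per 10000 in wells with 0, 578 with 1, 461 with 2 and 527 with 3 or more. Plate 2 had 556, 598, 571 and 504, and plate 3 had 516, 512, 595 and 561. No plate rose at every step, and wells with 3 or more stood above wells with 0 in plates 1 and 3 and below them in plate 2. A class held as few as 7 wells.

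GAPDH had nearly equal mean levels in both classes, but not in each plate. With and without nppa, GAPDH stood at 186 and 167 per 10000 in wild-type plate 1. Plate 2 had 221 and 254, and plate 3 had 229 and 220. Without GAPDH the sum, added after the data were seen, was higher with nppa in 3 of 3 wild-type and 4 of 4 mutant plates. With and without nppa it was 338 and 270 per 10000 in wild-type plate 1, 331 and 302 in plate 2, and 315 and 296 in plate 3, a mean difference of 39.0 ± 26.3 (SD, n = 3). In the mutant plates it was 287 and 237, 311 and 299.95, 332 and 291, and 291 and 264, a mean difference of 32.6 ± 16.9 (SD, n = 4). On the log2 scale the mean ratio was 0.18 for the wild type and 0.17 for the mutant. TMM scaling sets the level of the usual gene 0.20 and 0.28 higher with nppa on the same scale, and the ratios of this sum do not exceed those shifts. In the wild-type plates the difference was 15.5 in thinned wells, 44.8 in wells with at least 2000 transcripts and 12.1 in wells rich in cardiomyocyte markers, higher in 3 of 3 plates each time. In the mutant plates it was 17.9, 31.1 and 14.5, higher in 3 of 4 plates in thinned wells and in 4 of 4 in the others.

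**Figure D4:**
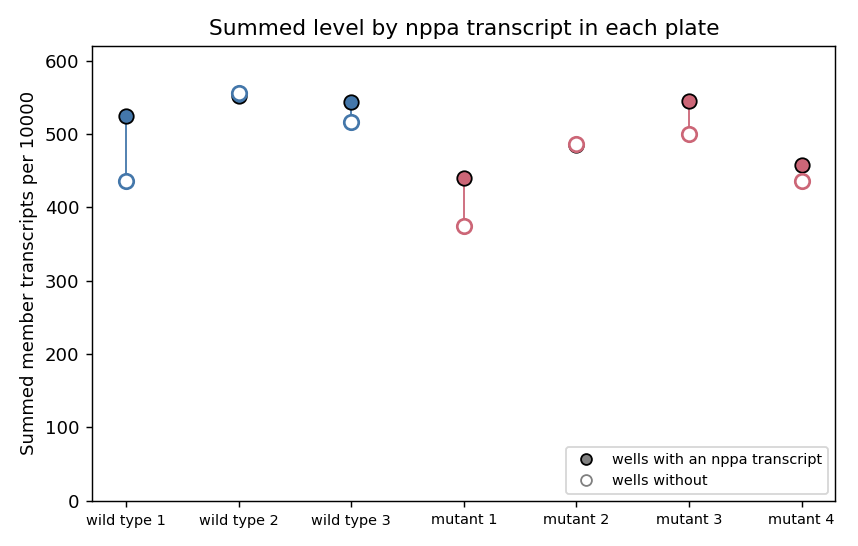
Summed member transcripts per 10000 in wells with (filled) and without (open) an nppa transcript, in each of the 7 plates, on an axis from 0. The filled point is the higher in wild-type plates 1 and 3, as it is in mutant plates 1, 3 and 4, and the points nearly coincide in both plates numbered 2.

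Single members were compared between the classes in a fit on a pair of sums per plate with plate as block, which tested 20 members and 2005 genes. In the wild-type plates 0 members and 11 genes (0.549%) had an adjusted p under 0.05 in edgeR's quasi-likelihood test, and DESeq2 also called 0 members. At an unadjusted p under 0.05 there were 3 members, all higher with nppa, beside 4.69% of all genes in either direction and 2.04% higher. Fold changes in this fit are relative to TMM scaling, which lies 0.20 on the log2 scale below the plain difference of levels, so a gene with equal levels in both classes comes out near -0.20. Of the 20 members 12 had a positive fold change, with a median of 0.08 beside 0.01 over all genes.

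SLC16A1, the lactate transporter, had the largest fold change with nppa. Its level with and without nppa was 1.38 and 0.462 per 10000 in wild-type plate 1, 0.419 and 0.0583 in plate 2, and 1.38 and 0.198 in plate 3. It was higher in 3 of 3 plates, with a log2 fold change of 2.19 ± 0.742 (edgeR adjusted p = 0.967). These levels rest on few transcripts, since SLC16A1 had 172 over all kept wells of both genotypes. In wells with at least 2000 transcripts the log2 fold change was 2.77 (edgeR adjusted p = 0.656), and in thinned wells the row was too sparse to be tested. In the mutant plates the levels with and without nppa were 1.03 and 0.0693, 0.801 and 0, 0.0653 and 0.191, and 1.21 and 0.598. It was thus higher in 3 of 4 mutant plates (log2 fold change 1.43 ± 0.734, edgeR adjusted p = 0.618).

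HK1, at the entry of the pathway, was also higher with nppa in every wild-type plate. The levels with and without nppa were 2.33 and 0.791 per 10000 in plate 1, 1.41 and 0.903 in plate 2, and 1.86 and 0.652 in plate 3. The log2 fold change was 1.06 ± 0.384 (edgeR adjusted p = 0.975). When the classes were called again in wells thinned to 1000 UMIs, it was 1.35 (edgeR adjusted p = 0.678), and in wells with at least 2000 transcripts it was 0.82 (edgeR adjusted p = 0.9986). In mutant plates HK1 was higher in 3 of 4, with means of 1.86 and 1.22.

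ALDOC completed the 3. Its levels with and without nppa were 4.56 and 1.98 per 10000 in wild-type plate 1, 4.53 and 2.97 in plate 2, and 3.52 and 2.86 in plate 3. The log2 fold change of 0.52 ± 0.218 (edgeR adjusted p = 0.979) was 0.28 without wild-type plate 1 and 0.37 in thinned wells (edgeR adjusted p = 0.878). In wells with at least 2000 transcripts it was 0.59 (edgeR adjusted p = 0.9986). Mutant plates had means of 4.99 with and 3.84 without nppa.

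Of the abundant members, GAPDH, LDHB, ENO3 and TPI1 ENSDARG00000040988 had nearly equal mean levels in both classes. GAPDH had wild-type means of 212 with and 213 without nppa, and LDHB 23.1 and 23.6. ENO3 had 46.5 and 45.3, and TPI1 ENSDARG00000040988 had 24.3 and 23.9. ALDOA ENSDARG00000011665 was higher with nppa in 3 of 3 wild-type plates, at 198 and 149, 131 and 122, and 127 and 115. Its mean difference of 23.1 ± 22.9 was a large part of the 39.0 for the sum without GAPDH. Relative to the other genes its fold change was 0.07 ± 0.108. ENO1 ENSDARG00000022456 was higher in 3 of 3 wild-type and 4 of 4 mutant plates, with wild-type means of 14.3 and 11.5. Its fold change relative to the other genes was 0.16 ± 0.124. By plain level 8 of the 20 tested members were higher with nppa in 3 of 3 plates, beside 23.1% of all genes tested, and 1, PFKL, was lower in 3 of 3, beside 6.53%. Phosphofructokinase rows other than PFKL had positive fold changes that turned negative without wild-type plate 2: PFKM ENSDARG00000060797 went from 0.58 to -0.06.

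In the mutant plates 0 members passed at an adjusted or an unadjusted p under 0.05, beside 0.648% and 8.33% of all genes. The difference of the nppa contrast between the genotypes was tested as well. It was called for 0 members and 0 genes (0%), and no member had an unadjusted p under 0.05, beside 2.99% of all genes. The lowest adjusted p among members in edgeR was 0.9998.

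**Figure D5:**
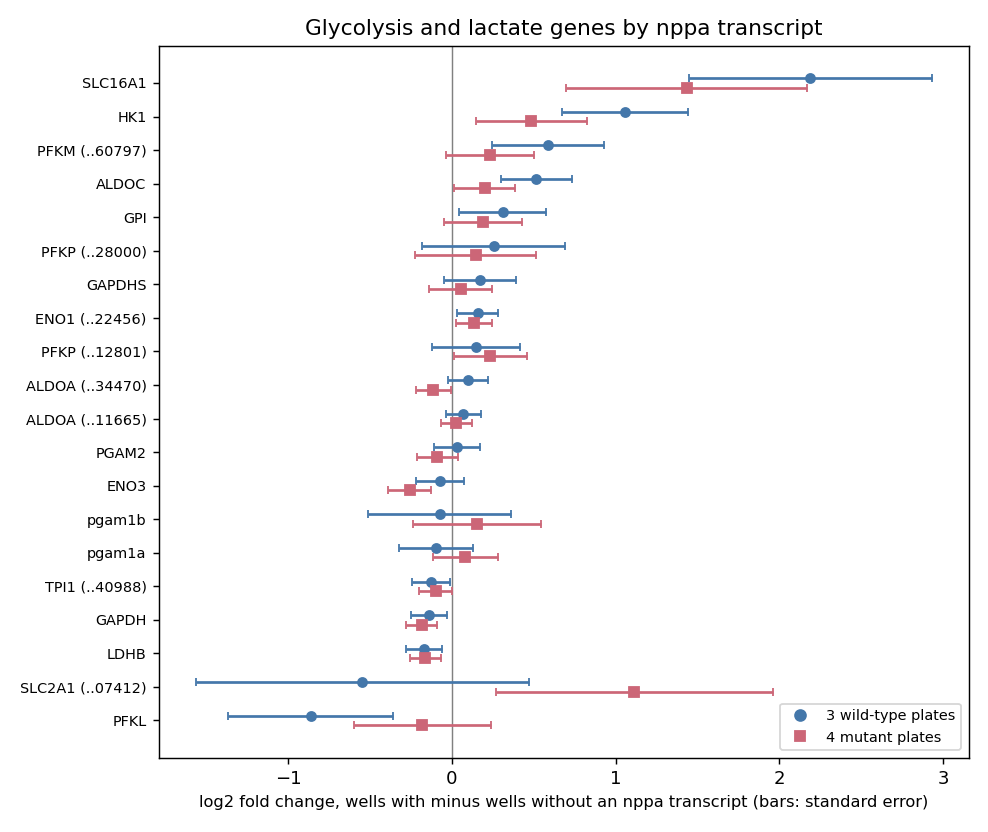
Fitted log2 fold change of the 20 members tested between wells with and without an nppa transcript, with the standard error as bars, in 3 wild-type plates (blue circles) and 4 mutant plates (red squares). SLC16A1, HK1 and ALDOC lie to the right of 0 in the wild-type plates. GAPDH, LDHB, ENO3 and TPI1 ENSDARG00000040988 lie slightly to the left in both genotypes, and no member had an adjusted p under 0.05.

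Other genes around the pathway were read from a list of 77 names, of which 56 rows matched and 29 could be tested by genotype. None had an adjusted p under 0.05 in edgeR's quasi-likelihood test (0 of 29), and 4 had an unadjusted one, all higher in the mutant, beside 7.58% of all genes. These 4 were genes of glycogen, the stored form of glucose. All 8 tested glycogen rows had a positive fold change, beside 51.9% of all genes tested, and their median was 0.51 beside 0.03. With no filter on low counts 12 glycogen rows were tested and 9 were positive, beside 45.4% of all genes. The median was then 0.33 beside -0.14. Without wild-type plate 1 the 8 stayed positive with a median of 0.42, beside 49.7% and a median of -0.0028 over all genes in that fit, and 1 of them had an unadjusted p under 0.05, beside 4.41%. PYGM ENSDARG00000055518, a glycogen phosphorylase, was at 0.163, 0.496 and 0.526 per 10000 in wild-type plates and at 0.920, 0.662, 0.911 and 0.603 in mutant plates. These groups do not overlap (log2 fold change 1.06 ± 0.399, edgeR adjusted p = 0.289). Without wild-type plate 1 it was 0.61. The other PYGM row, ENSDARG00000013317, had a log2 fold change of 0.45 ± 0.177 (edgeR adjusted p = 0.309), and 0.28 without that plate. PYGB, a further phosphorylase, had 0.56 ± 0.327 (edgeR adjusted p = 0.504), and PYGL, the liver form in mammals, was too sparse to be tested.

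The gene pgm1, whose enzyme links glycogen breakdown to glucose 6-phosphate, was at 0.325, 1.81 and 1.71 per 10000 in wild-type plates and at 2.05, 1.75, 2.27 and 2.22 in mutant plates. Wild-type plate 1 is again far below the rest (log2 fold change 0.96 ± 0.365, edgeR adjusted p = 0.290, and 0.37 without that plate). UGP2 ENSDARG00000005578, which makes the glucose donor for glycogen, had a log2 fold change of 0.44 ± 0.181 (edgeR adjusted p = 0.334). The other UGP2 row, ENSDARG00000008200, was too sparse to be tested, with means of 0.0704 in wild-type and 0.0163 in mutant plates. GYS1, the muscle glycogen synthase, had 0.39 ± 0.199 (edgeR adjusted p = 0.467). Genes of pyruvate entry into mitochondria and its control had a median of 0.06 over 12 tested rows. PDK4, a kinase that switches pyruvate dehydrogenase off, had the lowest p of these, with means of 3.35 ± 0.732 in wild-type and 2.37 ± 0.449 in mutant plates (log2 fold change -0.38 ± 0.174, edgeR adjusted p = 0.394). Of these pathway genes 26 were tested by nppa class in wild-type plates and 0 had an adjusted p under 0.05. One had an unadjusted p under 0.05, beside 4.69% of all genes. It was PFKFB3, which makes the activator of phosphofructokinase, with a log2 fold change of -3.81 ± 1.38 (edgeR adjusted p = 0.975). Over both classes PFKFB3 stood at 0.652, 0.0827 and 0.0451 per 10000 in wild-type plates 1 to 3, so it was sparse and mostly in plate 1.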

How the data were processed

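Per the labels' protocols, single cells were sorted into 384-well plates and CEL-seq2 libraries held spike-in RNA and unique molecular identifiers (UMIs). BWA 0.6.2 appears in the submitters' processing notes; sources used here name no build. The authors deposited estimated counts, 1 value for each gene in each well, corrected for UMI saturation and not scaled for depth. All 857630 values above 0 matched a whole UMI number corrected for 4096 barcodes to within 0.0051, which is a 6-base UMI where the protocol names 4 bases. For members the correction reached at most 4.52%.

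Estimates were summed per plate over kept wells, rounded to whole numbers and compared in edgeR 4.0.16 (TMM, filterByExpr with its defaults, glmQLFit and glmQLFTest, two-sided) in R 4.3.3, with p-values adjusted by Benjamini-Hochberg over all genes tested. The genotype fit held 3 wild-type and 4 mutant plates with sequencing run as covariate. The nppa fit held 2 sums per plate, wells with at least 1 nppa transcript and wells with 0, with plate as block, and nppa left out. Both fits were tested on simulated data drawn without effects of run or plate on single genes. How the fits handle such effects was not tested. DESeq2 1.42.0, other filters, other sets of wells, thinning to 1000 UMIs (7 wells were too shallow) and leaving out each plate were alternatives. Plates carry no replicate numbers in the labels and were numbered in order of deposit. Symbols covered 13087 of 16394 genes.

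By genotype, values in every plate are given for the 8 most abundant members and for those with an adjusted or unadjusted p under 0.05 in either fit. HK1 and SLC16A1 entered through the nppa fit. By nppa class, values in every plate are given for only some of these members. The members and lists were chosen with earlier results of these data known. Log2 differences within a run use a pseudocount of 0.1 per 10000. Genotype fold changes lie 0.05 on the log2 scale above the plain difference of levels because of TMM scaling. Intervals between plates cover the spread of these plates only.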

Additional observations from a re-analysis of the deposited data

Results flagged for a closer look

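ALDOA ENSDARG00000011665 stood at 156.2 transcripts per 10000 in mutant plate 2, while the other 3 mutant plates stood at 118.0 to 124.3. The gap to the nearest plate was 0.834 of the whole range, above Dixon's 95% critical value for 4 samples. The groups looked at numbered 22, the 21 tested members and the summed level in the mutant plates, and chance flags about 1 in 20. Without mutant plate 2, the genotype log2 fold change of this row kept its sign.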

How the results depend on the processing

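No paired analysis was possible by genotype because the labels give the plates no replicate numbers. The summed level kept its direction by genotype in every alternative run (-71.9 to -30.1 when 1 plate was left out); by nppa class it was -10.3 in wells rich in cardiomyocyte markers, where 37.5 was reported, and 12.0 to 58.2 without 1 plate. Without GAPDH the nppa difference, added after the data were seen, was 12.1 in those wells, where 39.0 was reported, and 24.1 to 48.9 without 1 plate. Members called by genotype numbered 0, but 1 in DESeq2 (PFKM ENSDARG00000060797, adjusted p = 0.0246), 1 with no filter on low counts (PFKM, edgeR adjusted p = 0.0437), 1 in wells free of other cell types' markers (LDHB, 0.0188) and 2 in thinned wells (LDHB, edgeR adjusted p = 0.0191; PFKM, 0.0165). Genes called by genotype numbered 14, and 47 in DESeq2, 83 with no filter, 9 with no run covariate, 29 in run 2 alone, 8 in run 1 alone, 61 in wells rich in cardiomyocyte markers, 74 in wells free of other markers, 53 in thinned wells and 7 to 20 without 1 plate. Genes called by nppa class numbered 11, and 4 with no plate block, 0 in wells rich in cardiomyocyte markers, 3 in thinned wells and 10 to 13 without 1 plate; the cause was not tested. With no filter the median genotype fold change of all genes tested in the main fit moved from 0.03 to -0.085. The median of the members tested in each fit moved from 0.19 to 0.03. Of 279 single-gene genotype values 264 kept direction and call, 5 became calls and 10 changed sign; of 166 for nppa, 152 and 14.

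The sign changes were these. By genotype: ALDOA ENSDARG00000034470 with no filter (-0.060), in run 2 alone (-0.037) and without 1 plate (-0.024 to 0.10), SLC16A1 in run 2 alone (0.041) and without 1 plate (-1.10 to 0.35), and ENO3 in run 1 alone (0.15). By nppa class: TPI1 ENSDARG00000040988 in wells of at least 2000 transcripts (0.040) and thinned wells (0.038), ALDOA ENSDARG00000011665 in marker-rich wells (-0.021), thinned wells (-0.00011) and without 1 plate (-0.061 to 0.13), PGAM2 in marker-rich wells (-0.070), thinned wells (-0.056) and without 1 plate (-0.14 to 0.17), ALDOA ENSDARG00000034470 in thinned wells (-0.042) and without 1 plate (-0.031 to 0.19). Without 1 plate they were also PFKM ENSDARG00000060797 (-0.061 to 1.16), PFKP ENSDARG00000012801 (-0.041 to 0.32), PFKP ENSDARG00000028000 (-0.16 to 0.65) and ENO3 (-0.20 to 0.042). Depth limits the transporters and the 7 rows that were not tested.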
